A study of Triticum turgidum subsp. durum with 8 samples.

Results

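The miR1128 family was the largest family of the small RNA table by number of sequences. Its members were taken by name: every entry named miR1128 or MIR1128 was kept, whatever letter followed the number, and each distinct sequence was counted once. This gave 216 sequences of 1473 in the series. Shoots of 3-week-old durum wheat seedlings (Triticum turgidum subsp. durum) were sequenced in 8 libraries. A library held pooled RNA of 6 plants, and no condition had more than 1 library. Seedlings were grown on basal nutrient solution lacking nitrogen (N, N-starved) or on the full solution (C, control). Their parents had been exposed to water-deficit and heat stress (WH) or kept as the control group (CG). The genotypes were DBA Aurora (Au), which is tolerant of that stress, and L6, a sensitive breeding line. Library names join these parts, so that AuWH_N is N-starved DBA Aurora from stressed parents. The 4 matched pairs of libraries that differ in 1 factor are therefore the only replication of that factor, and plants within a pool cannot be told apart. Levels are the deposited normalised reads counts.

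Miniature inverted-repeat transposable elements (MITEs) are short DNA transposons without coding capacity whose ends are inverted repeats. When such an element is transcribed, the inverted repeats can pair and fold into a long hairpin that Dicer-like enzymes cut into small RNAs. In plants, products of 21 nt are typical of the enzyme that makes most miRNAs, and products of 24 nt of the enzyme that makes the heterochromatic small interfering RNAs. Several wheat entries of miRBase, miR1128 among them, have been discussed as MITE derived. Elements of the Stowaway group carry ends that begin with the motif CTCCCTCCG.

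Member names give the differences from the annotated hairpin: p5 or p3 names the arm, and 1ss9AG means 1 substitution, A to G at base 9 of the small RNA. Undoing the named substitutions succeeded for all 216 members, and the resulting sequences joined, at overlaps of at least 12 bases, into 3 stretches. The stretches are shown because every member is a window of 1 of them. Capitals mark the motif CTCCCTCCG or its reverse complement CGGAGGGAG.
5' stretch: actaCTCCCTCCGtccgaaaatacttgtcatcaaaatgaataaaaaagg
3' stretch: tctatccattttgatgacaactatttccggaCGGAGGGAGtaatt
middle stretch: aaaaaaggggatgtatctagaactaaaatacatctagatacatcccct

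The 5' stretch (49 bases) held 107 members, the 3' stretch (45 bases) 101 and the middle stretch (48 bases) 8. Laid against each other as reverse complements, 44 bases of the 5' stretch faced the 3' stretch and 39 of them (88.6%) were complementary, which left 5 mismatches. In the paragraphs that follow, a substitution is written in stretch coordinates, counted from 1 at the 5' end of the stretch, with the base of the stretch first: A18G is A to G at base 18.

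The most abundant members were overlapping windows of the outer stretches, shifted by a few bases, and are shown for this overlap. The 4 sequences filed under p5_1ss9AG share 1 set of values, with the highest mean of the family. The seed, bases 2 to 8, is in capitals.
tae-MIR1128-p5_1ss9AG_1: cCGTCCGAgaatacttgtcatcaa
tae-MIR1128-p5_1ss9AG_2: tCCGTCCGgaaatacttgtca
tae-MIR1128-p5_1ss9AG_3: tCCGTCCGgaaatacttgtcat
tae-MIR1128-p5_1ss9AG_4: tCCGTCCGgaaatacttgtcatc
tae-MIR1128-p5_1ss10AG: cTCCGTCCggaaatacttgtcatc
tae-MIR1128-p5_1ss7AG_1: cGTCCGGAaatacttgtcatc
tae-MIR1128-p5_1ss11AG: cCTCCGTCcggaaatacttgtcat
tae-MIR1128-p3_1ss10CT: cAACTATTttcggacggagggagt
tae-MIR1128-p3_1ss11CG_1: tTGATGACaagtatttccgga
tae-MIR1128-p3_1ss14CG_1: aTTTTGATgacaagtatttcc
tae-MIR1128-p3_1ss22AC: tATTTCCGgacggagggagtact

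Below, names are shortened by the leading tae-MIR1128-. The members p5_1ss7AG_1, p5_1ss10AG and p5_1ss11AG all carried A18G and started at bases 12, 9 and 8 of the 5' stretch. Of the 4 sequences under p5_1ss9AG, 3 also carried A18G and started at base 10. The remaining sequence, p5_1ss9AG_1, carried A19G and started at base 11. On the 3' stretch, p3_1ss11CG_1 and p3_1ss14CG_1 both carried C21G and started at bases 11 and 8. The 4 sequences under p5_1ss9AG are listed at 4 loci of Svevo.v1, with chromosome names matched as described under processing. The locus of p5_1ss9AG_1 is chr5B:453632330-453632462, which overlaps TRITD_5Bv1G152820. Those of p5_1ss9AG_2, p5_1ss9AG_3 and p5_1ss9AG_4 are chr3A:460731350-460731482, chr7B:573886281-573886419 and chr5B:566293855-566293985, none of these 3 within 2000 bases of an annotated gene. Whether the sequences also match other loci was not examined. A substitution named at different bases of the small RNA can therefore be the same change of the hairpin. The 82 distinct seeds were as scattered as the starts: 45 belonged to 1 member each, and 171 members shared a seed with another member. The most frequent seed, TTTGATG, was found in 12 members, all on the 3' arm, and in no sequence of another family. In contrast, 25 seeds, borne by 78 members, also occurred in other families.

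The 267 named substitutions were of 58 distinct changes and were spread unevenly over the bases. Members overlap and some share a name, so the same change was counted in many members. The 5 mismatched positions between the stretches held 170 of the 267 substitutions, and 141, in 122 members, gave the base that is complementary to the facing stretch. The most frequent was C21G, in 58 members, followed by A18G in 32, C27T in 25 and A39G in 19. At each mismatch either of 2 changes gives a pair: C2T or A43G, A18G or C27T, C24G or C21G, A39G or C6T, and A43G or C2T, with the change of the 5' stretch named before that of the 3' stretch. The frequent changes A18G and C27T thus lie on opposite sides of the same mismatch. Transitions (160) outnumbered transversions (107). Only 27 members had no substitution, 111 had 1 and 78 had 2.

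**Figure D1:**
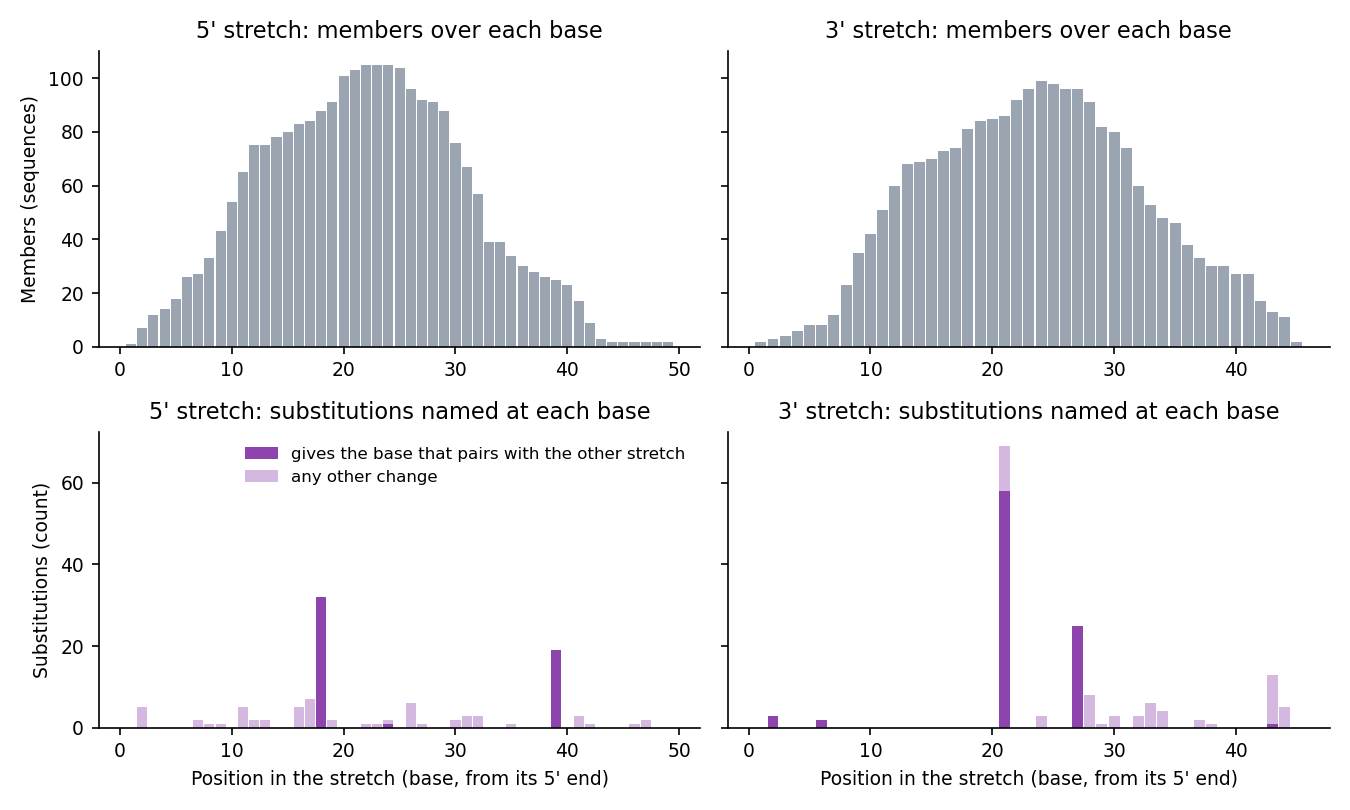
Number of members over each base (upper panels) and number of named substitutions at each base (lower panels) of the 5' stretch (left) and the 3' stretch (right), counted from the 5' end of each stretch. Dark bars are changes that give the base complementary to the other stretch; C21G (58 members), A18G (32), C27T (25) and A39G (19) stand above all other changes.

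The hairpins lay at 211 loci on all 14 chromosomes of the durum wheat assembly Svevo.v1, 61 of them on A-genome and 150 on B-genome chromosomes. Their median length was 133 bases (range 89 to 184), against 96 for the other families miR1117 to miR1139 and 114 for all other hairpins. The motif CTCCCTCCG was found on at least 1 strand of 185 hairpins (87.7%) and on both strands of 108 (51.2%). Among the 963 other hairpins of the table, 426 (44.2%) held it on at least 1 strand and 184 (19.1%) on both. Among the 240 hairpins of the other families numbered miR1117 to miR1139, of which several are also MITE-like, 169 (70.4%) held it. In the small RNAs themselves, the motif or its reverse complement was found in 16.7% of members. The share was 24.2% in the sequences of those other families and 14.8% in all sequences outside miR1128. RNAfold gave a median folding energy of -58.32 kcal/mol per 100 bases for the miR1128 hairpins, against -57.61 for the other families miR1117 to miR1139 and -54.21 for all 963 others. Of the miR1128 loci, 35 (16.6%) overlapped an annotated gene and 58 (27.5%) lay within 2000 bases of one, against 186 (19.3%) and 325 (33.7%) of the 963 others. These shares are descriptions and were not tested.

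Only 5 hairpins listed a product from each arm. The most abundant of these products was p3_1ss22CT, and its hairpin is shown for this reason. It lies at chr1B:197832164-197832296 of Svevo.v1 on the plus strand, 133 bases long, with no annotated gene within 2000 bases. Capitals mark the joint extent of both products.
hairpin of p5_1ss8CG and p3_1ss22CT: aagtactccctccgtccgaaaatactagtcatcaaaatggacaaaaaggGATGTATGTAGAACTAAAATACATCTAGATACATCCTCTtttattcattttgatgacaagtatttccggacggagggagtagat
The product labelled 5' covers bases 50 to 73 and that labelled 3' bases 65 to 88, so that both lie in the middle of the hairpin and share 9 bases. In 3 of the 5 hairpins the products overlapped in this way, by 9, 19 and 21 bases. In the other 2 they lay apart, on opposite sides of the middle. The p3_1ss22CT product had 15.3, 20.4, 18.2 and 12.7 normalised reads in AuWH_N, AuCG_N, L6WH_N and L6CG_N, against 14.5, 25.95, 22.98 and 7.54 in the matched controls. Its partner p5_1ss8CG was listed only in AuCG_N (7.84) and AuCG_C (4.47).

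Values in the table belong to names, not to sequences. The 216 members carry 144 names once the running number is dropped, and 36 of these names hold several sequences (108 members). Sequences under 1 such name had identical values in all 8 libraries without exception, although 35 of the 36 names held several lengths, 8 several start positions, 6 different substitutions of the hairpin and 1 different stretches. In all, 142 distinct sets of 8 values remained, and 110 members (50.9%) shared their set with another member, against 24.3% of all other sequences. The largest such set was p5, without substitution, with 20 sequences, all listed at 7.84 in AuCG_N, at 3.25 in L6WH_N and at 0 elsewhere. The level of a shared set cannot be divided among its sequences, and every sum of the family given here counts a set once unless stated otherwise.

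The family was of low abundance. The 8 libraries held an estimated 1036820 (AuWH_C) to 2453090 (L6WH_N) reads over all names of the table. These estimates count a shared value once for every name that carries it. With each set of values counted once, the family took 0.0738% to 0.148% of the summed level. Every member value was a whole number of estimated reads (within 0.02), where 1 read was worth between 0.649 (L6WH_N) and 1.57 (AuCG_N) normalised reads, and no listed value was under 5 reads. An entry at 0 can thus hold up to 4 reads, and listing depends on depth. The deposited expression class was medium for 105 members, low for 111 and high for 0. Between 87 (AuWH_C) and 166 (L6WH_N) members were listed per library, and the L6WH libraries, in which 1 read was worth least, listed the most. When values under 7.84, the worth of 5 reads in the shallowest library, were set to 0 everywhere, 47 (L6WH_N) to 91 (AuCG_N) members remained. Over all 8 libraries 33 members (15.3%) were listed, against 489 (33.2%) of all sequences, and 77 members were listed in no more than 2.

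The summed level of the family differed little between libraries. It was 1386 in AuWH_N, 1135 in AuCG_N, 1380.0 in L6WH_N and 1436 in L6CG_N, against 1272 in AuWH_C, 1230.5 in AuCG_C, 1548 in L6WH_C and 1343 in L6CG_C, which correspond to 724 to 2156 estimated reads. The ranges of N-starved (1135 to 1436) and control libraries (1230.5 to 1548) overlapped in part. The log2 ratio of N-starved over control was 0.12 (AuWH), -0.12 (AuCG), -0.17 (L6WH) and 0.10 (L6CG), with a mean of -0.02 ± 0.15 (SD, 4 pairs). The ratio of WH over CG parents averaged 0.12 ± 0.16 and was above 0 in 3 of 4 pairs. That of DBA Aurora over L6 averaged -0.19 ± 0.16 and was below 0 in 3 of 4 pairs. The coefficient of variation over the 8 libraries was 9.56%, the smallest among the 104 families that averaged at least 10 in total, whose median was 29.9%. Other large or MITE-like families were also under this median: 14.9% for miR9668, 16.5% for miR1137, 16.9% for miR1122 and 19.6% for miR1120. The coefficient of miR1130 was 29.8%. The rank of miR1128 depended on the scaling: with equal library totals its coefficient was 19.8% (rank 17), and with scaling to the clear reads of each library 17% (rank 11). The deposited totals of all sequences were not equal, so the small spread holds for the deposited scale.

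**Figure D2:**
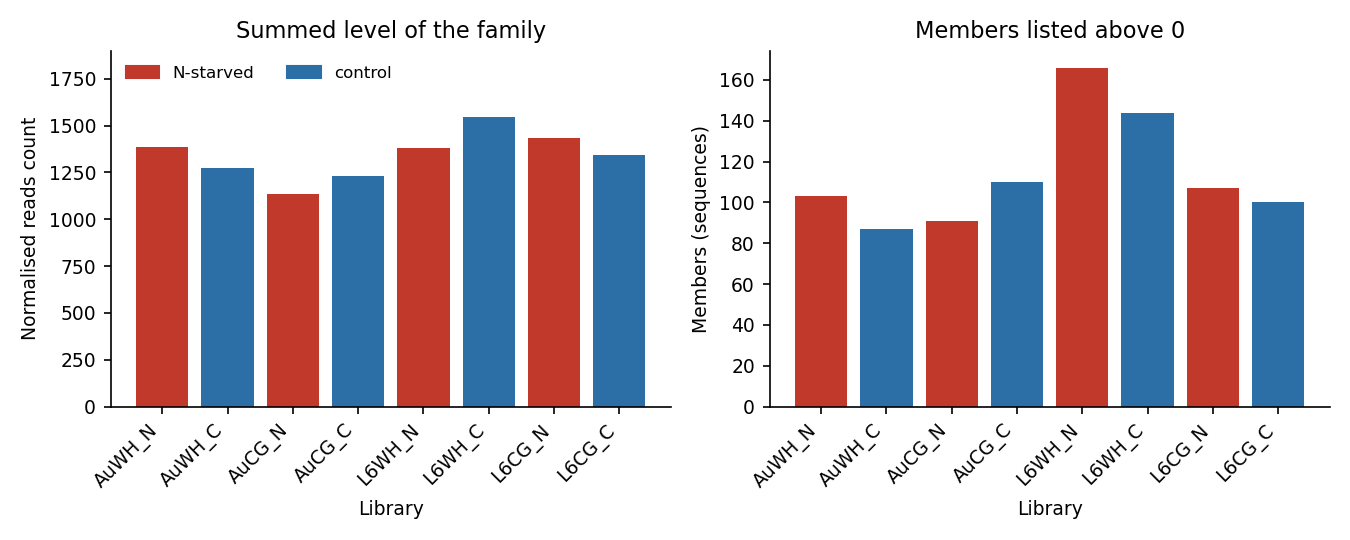
Summed normalised reads count of the miR1128 family, each set of values counted once (left), and number of the 216 members listed above 0 (right), in the 8 libraries; N-starved red, control blue, 1 library per bar. The sums lie between 1135 and 1548, and L6WH_N lists the most members (166).

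By arm, 53.7 ± 4.4% of the level (SD over 8 libraries) came from sequences of the 5' side (113 sequences) and 46.3% from the 3' side (103), when the level of a shared set was divided equally. The 5' share ranged from 48.1% (AuCG_C) to 59.7% (AuWH_N). By length, 106 members were of 24 nt (49.1%) and 71 of 21 nt (32.9%), against 34.7% and 41.2% of all sequences of the series. Sequences of 24 nt made 43.8% of the other families miR1117 to miR1139 and 64.6% of miR9668. Sequences of 23 to 25 nt made 61.0 ± 5.4% of the level and those of 20 to 22 nt 38.7 ± 5.5%. Since all 36 shared sets mix lengths, the unmixed sets are the firmer measure: 62 sets of 24 nt held 35.2% of the level and 32 sets of 21 nt 17%. In L6CG_N the 24-nt sets held 21.5%, the lowest share, against 29.9% to 41.9% in the other libraries, while the 21-nt sets held 21.9%, the highest. T was the most frequent first base at both 21 nt (36 of 71) and 24 nt (35 of 106, equal to C with 35).

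A few sets carried the level. The set of p5_1ss9AG alone made 15% of it, the 7 highest sets 47.8% and the 12 highest 57.5%. The p5_1ss9AG set had 159.9, 174, 166 and 267 normalised reads in AuWH_N, AuCG_N, L6WH_N and L6CG_N, against 169.6, 164, 270.0 and 241 in the matched controls. The level was higher in L6 than in DBA Aurora in all 4 matched comparisons. For p5_1ss10AG the values were 133, 79.9, 119 and 50.7 in the N-starved libraries in the same order, against 89.4, 84.1, 89.8 and 86.2 in the controls. Here the controls lay close together and the N-starved libraries on both sides of them. For p5_1ss7AG_1, with 1 further sequence, the N-starved values were 146, 56.4, 95.5 and 123, against 88.1, 72.5, 66.8 and 83.0 in the controls. They were higher with N starvation in 3 of 4 pairs, with AuCG the exception.

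The 2 entries that carry the miRBase name itself, without an arm, were among the lowest. The entry tae-miR1128_L-2R+5 (bases 2 to 25 of the 5' stretch) was listed at 4.55 in L6WH_N and 6.57 in AuWH_C, and tae-miR1128_L-1R+4_1ss3CA (bases 1 to 24) at 3.25 in L6WH_N and 6.57 in AuWH_C, with 0 in the other libraries.

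On the 3' stretch, p3_1ss10CT had 111, 40.8, 85.7 and 63.4 in AuWH_N, AuCG_N, L6WH_N and L6CG_N, against 55.2, 77.0, 104 and 63.6 in the controls. It was higher with N starvation in 1 of 4 pairs. The set of p3_1ss11CG_1 (2 sequences) ranged from 45.6 to 86.2, at 76.4, 83.1, 74.0 and 65.3 in the N-starved libraries, against 77.6, 45.6, 51.0 and 86.2 in the controls. The set of p3_1ss14CG_1 (2 sequences) stood at 33.6, 40.8, 34.4 and 94.6 in the N-starved libraries, against 68.4, 58.2, 55.3 and 72.2 in the controls. It was lower with N starvation in 3 pairs and higher in L6CG.

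The remaining sets among the 12 had means of 20.1 to 54.2, and the highest library exceeded the lowest by 1.99-fold (p3_1ss20AC) to 7.06-fold (p3_1ss22AC). The p5_1ss5CT member, which carried C16T, had 41.8, 12.5, 45.5 and 43.9 in AuWH_N, AuCG_N, L6WH_N and L6CG_N, against 43.4, 27.7, 16.5 and 23.7 in the controls. It was higher with N starvation in both L6 pairs and lower in both DBA Aurora pairs. The p3_1ss4CA member, which carried C21A, had 26.5, 29.8, 24.0 and 10.7 in the N-starved libraries, against 22.4, 27.7, 28.0 and 23.7 in the controls. L6CG_N was below all other libraries here. The p3_1ss9CG_1 set (3 sequences) had 21.4, 32.9, 14.3 and 20.5, against 27.6, 33.1, 35.9 and 25.9 in the controls, and was lower in all 4 pairs with overlapping groups. The p3_1ss20AC member had 23.4, 15.7, 18.8 and 19.5, against 17.1, 16.1, 18.7 and 31.2 in the controls. It was higher in both WH pairs and lower in both CG pairs.

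**Figure D3:**
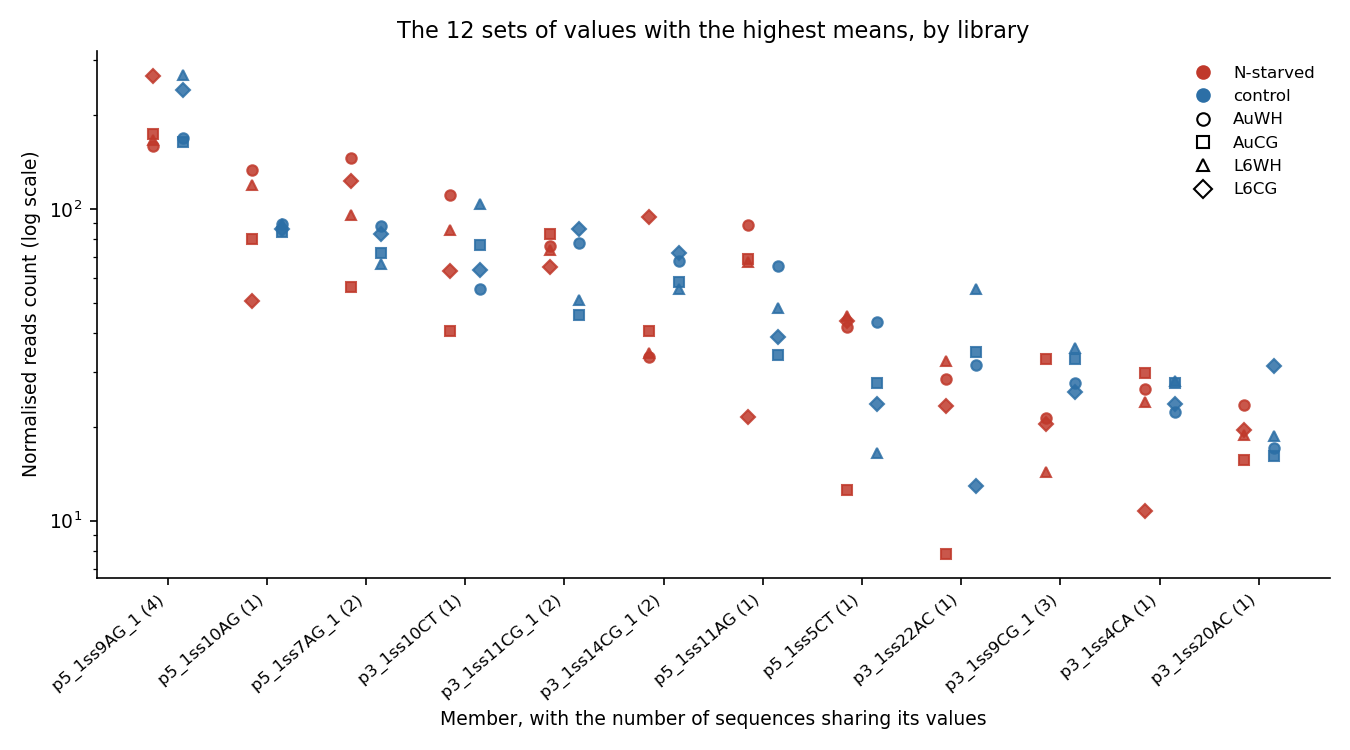
Normalised reads count (log axis) of the 12 sets of values with the highest means, from left to right, in the 8 libraries; N-starved red at left and control blue at right of each position, marker shape by genotype and parents, number of sequences sharing the values in brackets. N-starved and control libraries overlap in each of the 12 sets, and L6CG_N (red diamond) is far above the other N-starved libraries for p5_1ss9AG_1 (267) and p3_1ss14CG_1 (94.6).

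To ask which members responded to N starvation, all 605 sequences with a mean of 10 or more were fitted with limma on log2 of the normalised reads count plus 1, with progeny treatment, parental treatment and genotype as terms and Benjamini-Hochberg adjustment over all of them. Of the 216 members, 31, in 22 sets of values, passed this filter on low values, and 185 did not. With N starvation 25% of all sequences passed the test (58, or 9.59%, higher and 93, or 15.4%, lower, of 605), but 0 of 31 members did. None reached an unadjusted p under 0.05 either, against 33.6% of all sequences. The median log2 change was -0.10 over the 22 sets and -0.06 over all sequences. The median standard error was 0.33 for members and 0.36 for all sequences. In the same fit, 23 of 101 sequences of the other families miR1117 to miR1139 were lower with N starvation and 0 higher, including 16 of 46 of miR1120 and miR1122 and 6 of 23 of miR1130 and miR1137. For miR9668, another large family, 3 of 36 were higher and 1 lower. Whether the families differ in this respect was not tested.

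The members of lowest p fell short of the threshold. The p3_2ss11CA18CT member had 7.13, 10.97, 6.49 and 9.75 in AuWH_N, AuCG_N, L6WH_N and L6CG_N, against 9.20, 17, 16.5 and 22.6 in the controls. It was lower in all 4 pairs with overlapping groups, at a log2 change of -0.82 (95% interval -1.68 to 0.04, limma adjusted p = 0.170). The p5_2ss7TC20AG member had 10.2, 0, 9.74 and 14.6, against 17.1, 10.7, 20.1 and 30.2, and was also lower in all 4 pairs (log2 change -1.55, interval -3.26 to 0.15, limma adjusted p = 0.184). The p5_2ss9AG17TC member had 7.13, 0, 5.20 and 23.4, against 17.1, 8.95, 25.9 and 17.2, and was lower in 3 of 4 pairs (log2 change -1.54, interval -3.39 to 0.30, limma adjusted p = 0.226). The exception was L6CG. Both changes rested largely on AuCG_N, where these members were at 0: without it they were -0.73 for p5_2ss7TC20AG and -0.77 for p5_2ss9AG17TC (limma adjusted p = 0.312 and 0.447). Without L6CG_N, in contrast, p5_2ss9AG17TC passed the test (log2 change -2.36, limma adjusted p = 0.0292), as did the p3_1ss15CG_1 set of 2 sequences (-2.34, limma adjusted p = 0.0432). That set had 10.2, 0, 6.49 and 42.9 in AuWH_N, AuCG_N, L6WH_N and L6CG_N, against 23.7, 17, 18.7 and 10.8 in the controls, so that L6CG_N was above every control and the other N-starved libraries below theirs. The filter took the mean over all 8 libraries, L6CG_N included. Both members reached it through L6CG_N and the controls, so these calls are no test of a response to N starvation. The p3_2ss11CA18CT and p5_2ss7TC20AG members also reached the filter through the controls, in which they were higher.

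Below the filter lay members that were listed in few libraries. When sequences with a mean of 5 or more were kept (811), 79 members entered and 5 of them, in 4 sets, passed, beside 18% of all sequences (7.03% higher and 11% lower, 28.6% at an unadjusted p under 0.05). With no filter 6 members in 5 sets passed, beside 9.57%. All were higher in the N-starved libraries, but those with a mean of 5 or more reached it only through these libraries, in which they had to be higher. The counts are therefore no test of the family, and no fold change or p is given for these members. The sequences are shown because they include the members listed in N-starved libraries alone, with the seed in capitals.
tae-MIR1128-p5_1ss8GC: tCCGTCCCaaaatacttgtca
tae-MIR1128-p5_1ss6GC: cGTCCCAAaatacttgtcatc
tae-MIR1128-p5_2ss17TC21AG: tCCGTCCGaaaatactcgtcg
tae-MIR1128-p3_2ss2CT21CG_1: tTTATCCAttttgatgacaag
tae-MIR1128-p5_2ss19AG21TC: aTACTTGTcatcaaaatggac

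The p5_1ss8GC member had 9.17, 9.41, 15.6 and 21.5 normalised reads in AuWH_N, AuCG_N, L6WH_N and L6CG_N, against 0 in each of the 4 controls. These values stand for 9, 6, 24 and 22 estimated reads, 61 in all (exact Poisson 95% interval 46.7 to 78.4, counting error only). Its hairpin lies at chr3B:468664776-468664908, within 2000 bases of TRITD_3Bv1G151800. The p3_2ss2CT21CG_1 set (2 sequences, of 21 and 24 nt) had 11.2, 14.1, 12.99 and 9.75, or 50 estimated reads (37.1 to 65.9), against 0 in each control. The p5_2ss19AG21TC member had 11.2, 7.84, 5.84 and 7.80, or 33 estimated reads (22.7 to 46.3), against 0 in each control. Its hairpin, chr5B:622082849-622082983, overlaps TRITD_5Bv1G219810. An entry at 0 can hold up to 4 reads.

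The p5_1ss6GC member had 12.2, 7.84, 19.5 and 25.4 in the N-starved libraries in the same order, against 6.57 in AuWH_C and 0 in the other controls. The p5_2ss17TC21AG member had 17.3, 17.2, 16.9 and 13.7, against 6.57 in AuWH_C and 0 in the other controls. In both, each N-starved library was above every control in normalised reads, and the value in AuWH_C stands for 5 reads. For p5_1ss6GC the value in AuCG_N also stands for 5 reads, so AuCG_N and AuWH_C differ there only in the worth of 1 read. How many of all sequences show such a separation was not counted.

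**Figure D4:**
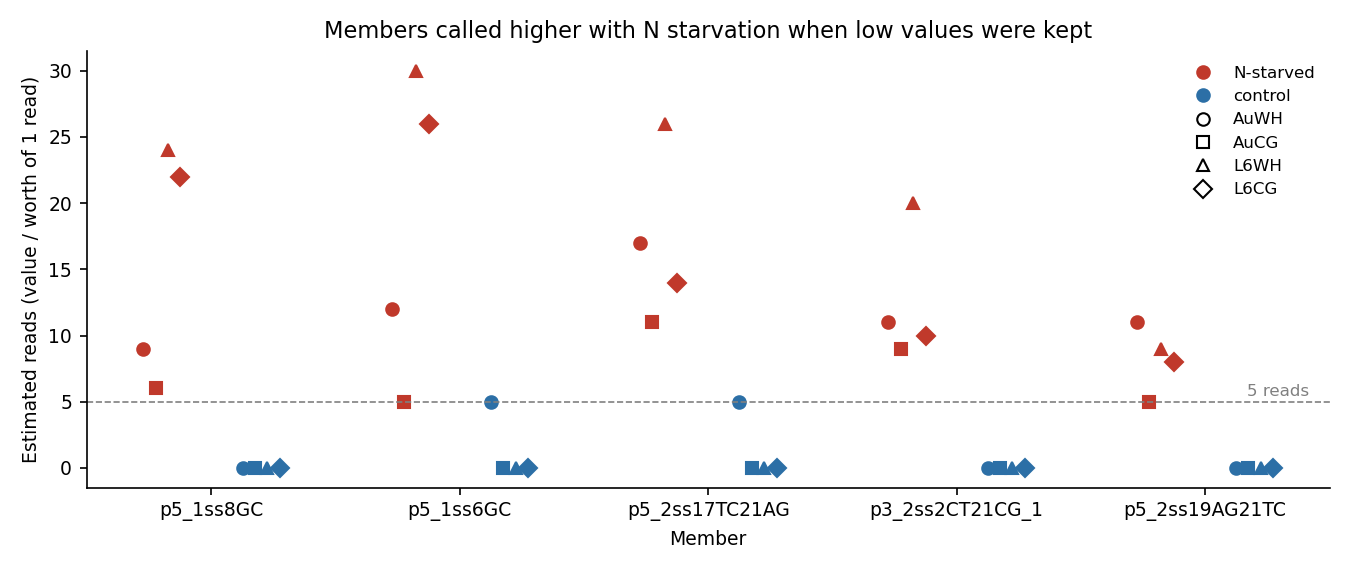
Estimated reads (normalised reads count divided by the worth of 1 read) of 5 members in the 8 libraries; N-starved red at left and control blue at right of each position, marker shape by genotype and parents, dashed line at 5 reads, the smallest listed number. The N-starved libraries hold 5 to 30 reads; the controls are at 0 except AuWH_C, at 5 reads for p5_1ss6GC and p5_2ss17TC21AG.

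Counted over all 1473 sequences, 7 (0.475%) were listed in all 4 N-starved libraries and at 0 in all 4 controls. Of these 7, 4 were miR1128 members, in 3 sets of values. The reverse pattern was found in 14 sequences (0.95%) and in 0 members. With the common floor of 7.84 the N-starved pattern held for 9 sequences, 5 of them miR1128 members: p5_1ss8GC, p5_1ss6GC, p5_2ss17TC21AG and both sequences of p3_2ss2CT21CG, which share values. The floor is the worth of 5 reads in AuCG_N, an N-starved library. It set p5_1ss6GC and p5_2ss17TC21AG (6.57 each) to 0 in AuWH_C and kept p5_1ss6GC in AuCG_N (7.84). These members thus gained the pattern through the floor, which is no check of it. For genotype, p3_2ss10CG23GA was the only member of the 3 sequences (0.204%) listed in all 4 DBA Aurora libraries and at 0 in L6, with 24 estimated reads. The p3_2ss20AT21TA member was the only one of the 11 sequences (0.747%) with the opposite pattern, with 23 estimated reads. Neither pattern held at the common floor. For parents, 4 sequences (0.272%) were listed in the WH libraries alone and 0 in the CG libraries alone, and none was a member.

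The members p5_1ss8GC and p5_1ss6GC carried the same change, G17C, as their only one, and so did the p5_1ss7GC set. This grouping was made after their values were seen. Summed over these 3 names (4 sequences), the level was 26.5, 17.2, 45.5 and 63.4 in AuWH_N, AuCG_N, L6WH_N and L6CG_N, against 6.57, 0, 0 and 6.47 in the controls. Each N-starved library was above every control. As p5_1ss8GC and p5_1ss6GC had this order before they were summed, it is no test of the change. The p5_1ss7GC set alone did not show it, with 5.09, 0, 10.4 and 16.6, against 0, 0, 0 and 6.47 in the controls. The fifth member with G17C, p5_2ss12GC18AT, which carries A23T as well, did not follow this pattern, with 7.13, 7.84, 6.49 and 0 in the N-starved libraries, against 9.20, 0, 4.31 and 0 in the controls. Names with A18G as the only change, 10 names that could be assigned, summed to 390.1, 213, 311 and 199.9 in the N-starved libraries, against 256, 222, 235 and 244 in the controls. This sum leaves out p5_1ss9AG, the most abundant set, because its sequences carry A18G or A19G. Directions in single pairs hold only for the sum without it. The A18G names summed were higher with N starvation in 2 of 4 pairs, and C21G (9 names) and C27T (8 names) in 1 of 4 each. Names with A39G (6 names) had 28.0 to 45.8 in any library and were higher in 3 of 4 pairs.

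For parental stress, 0% of all 605 sequences and 0 of 31 members passed the limma test, and 1 member had an unadjusted p under 0.05, against 1.65% of all sequences. This was p5_1ss11AG, with 88.6, 65.7, 67.5 and 48.1 normalised reads in AuWH_N, AuWH_C, L6WH_N and L6WH_C, against 69.0, 34.0, 21.5 and 38.8 in AuCG_N, AuCG_C, L6CG_N and L6CG_C. It was higher with stressed parents in all 4 pairs, with overlapping groups (log2 change 0.80, 95% interval 0.02 to 1.58, limma adjusted p = 1.0), and the change was 0.49 without L6CG_N. The p3_1ss22AC member had 28.5, 31.6, 32.5 and 55.3, against 7.84, 34.9, 23.4 and 12.9, and was higher in 3 of 4 pairs (log2 change 1.02, limma adjusted p = 1.0; 0.63 without L6CG_C). The p3_2ss12CT18GA member had 22.4, 15.8, 20.8 and 18.7, against 21.9, 7.16, 8.78 and 8.62, and was higher in all 4 pairs (log2 change 0.81, limma adjusted p = 1.0). The median log2 change of the 22 sets was 0.25, against -0.03 over all sequences, and 16 of the 22 were above 0. Without AuCG_N the median was 0.02 and 11 of the 22 were above 0.

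For genotype, 2.64% of all sequences passed (2 higher, and 14, or 2.31%, lower in DBA Aurora) and 0 of 31 members, with 0 members at an unadjusted p under 0.05 against 13.9% of all sequences. The p5_1ss9AG set came closest. It had 159.9, 169.6, 174 and 164 in AuWH_N, AuWH_C, AuCG_N and AuCG_C, against 166, 270.0, 267 and 241 in the matched L6 libraries, and was lower in DBA Aurora in all 4 pairs (log2 change -0.47, 95% interval -1.0 to 0.05, limma adjusted p = 0.399). The p5_2ss7TC20AG and p5_2ss9AG17TC members followed, both lower in DBA Aurora in 3 of 4 pairs (log2 changes -1.38 and -1.42, limma adjusted p = 0.439 and 0.455). Without AuCG_N these were -0.56 and -0.64, and without L6CG_N -0.92 and -0.59. In limma, 0 of 605 sequences and 0 of 31 members passed for any of the 3 interactions between the factors. At an unadjusted p under 0.05 there were 10 to 34 sequences and 0 members, and the lowest adjusted p of a member was 0.918.

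**Figure D5:**
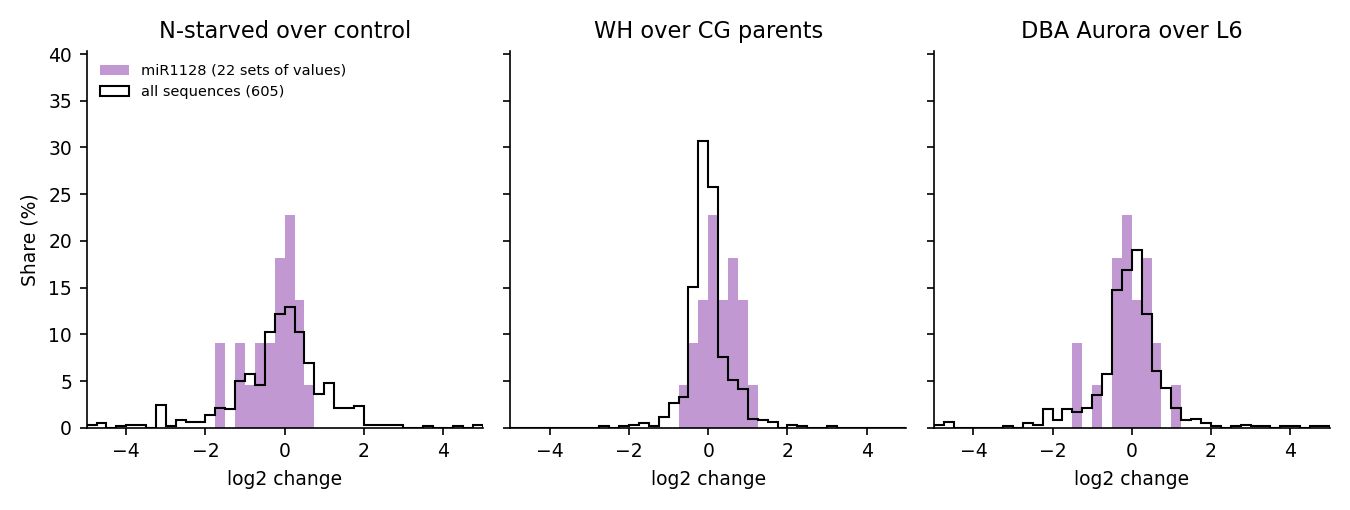
Distribution of the log2 changes fitted by limma for the 22 miR1128 sets of values with a mean of 10 or more (filled) and for all 605 sequences (line), as a share of each, for N-starved over control, WH over CG parents and DBA Aurora over L6. The axes run from -5 to 5, which leaves out 19 sequences for N starvation and 5 for genotype, none of them members; with N starvation the members lie between -1.55 and 0.54.

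The study compared pairs of libraries with Fisher's exact and chi-square tests. Here Fisher's exact test was applied to all 1508 names, and a name was called at p under 0.05 and an absolute log2 ratio over 1, where 1 was added to both values. All log2 ratios of pairs below include this pseudocount, which brings them nearer to 0. As each side is 1 library, it compares libraries and not conditions. For N starvation, 64 of 216 members were called in AuWH, beside 31.5% of all names, 104 in AuCG beside 44.3%, 69 in L6WH beside 32.4% and 66 in L6CG beside 34.9%. Members were thus called in 29.6% to 48.1% of cases. Sequences that share values repeat a call. With each set of values counted once, 46 of 142 sets were called in AuWH, 64 in AuCG, 47 in L6WH and 48 in L6CG. Lower calls of members outnumbered higher ones in each pair, by 36 to 28 in AuWH, 62 to 42 in AuCG, 47 to 22 in L6WH and 35 to 31 in L6CG. By sets these were 25 to 21, 46 to 18, 33 to 14 and 25 to 23. This direction was not particular to the family: over all its miRNAs the study reported more down-regulated than up-regulated ones in each of these pairs. Most of the calls of members set a listed value against a 0: 56, 101, 58 and 56 in the same order. At 20 or more normalised reads in 1 of both libraries, 5 of 25 members were called in AuWH (beside 39.2% of all names at that level), 3 of 23 in AuCG (38.8%), 5 of 23 in L6WH (40.3%) and 14 of 35 in L6CG (39.9%). By sets these were 3 of 16, 3 of 15, 3 of 15 and 10 of 23.

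The largest changes between N-starved and control libraries at that level were these. In L6CG, p5_1ss6GC was the largest rise (25.4 in L6CG_N, 0 in L6CG_C), and p3_1ss17CT the largest fall (4.88 against 24.8, log2 ratio -2.13). In AuCG, p3_2ss12CT18GA was the largest rise (21.9 against 7.16, log2 ratio 1.49) and p3_1ss22AC the largest fall (7.84 against 34.9, -2.02). In L6WH, p5_1ss5CT was the largest rise (45.5 against 16.5, 1.41) and p5_2ss9AG17TC the largest fall (5.20 against 25.9, -2.12). In AuWH the p3_1ss15CG_1 set was the largest fall (10.2 against 23.7, -1.14), and all calls at that level were falls. With no pseudocount p3_1ss10CT was called as a rise there (111 against 55.2, log2 ratio 1.01). No member was called in the same direction in all 4 pairs apart from the 4, in 3 sets of values, that were listed in the N-starved libraries alone. Over all 1508 names, 25 were called higher in all 4 pairs and 56 lower.

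For parental stress the rule called 42 members between AuWH_C and AuCG_C (beside 21% of all names), 83 between AuWH_N and AuCG_N (31%), 75 between L6WH_C and L6CG_C (30.9%) and 69 between L6WH_N and L6CG_N (22.4%). By sets of values, 34, 46, 59 and 48 of 142 were called in the same order. In the L6 controls 64 of the 75 calls were higher in L6WH_C, of which 1 read was worth 0.718 normalised reads, against 1.08 in L6CG_C. Over all its miRNAs the study also reported more up-regulated than down-regulated ones in this pair. The part of depth in the direction of these calls was not tested. At 20 or more, 2 of 25 members were called in that pair, beside 14% of all names at that level. They include p3_1ss22AC, with 55.3 in L6WH_C against 12.9 in L6CG_C (log2 ratio 2.01). It was also the largest rise between AuWH_N and AuCG_N (28.5 against 7.84, 1.74). Between L6WH_N and L6CG_N, p5_1ss11AG rose most (67.5 against 21.5, 1.61) and p3_1ss15CG_1 fell most (6.49 against 42.9, -2.55). Between AuWH_C and AuCG_C, p3_1ss17CT rose most (23.7 against 8.95, 1.31) and p3_2ss11CG17CT fell most (9.20 against 21.5, -1.14).

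For genotype, 48 members were called between AuCG_C and L6CG_C (beside 24% of all names), 105 between AuCG_N and L6CG_N (40.8%), 96 between AuWH_C and L6WH_C (39.7%) and 25 between AuWH_N and L6WH_N (15.3%). By sets of values, 33, 62, 77 and 18 of 142 were called in the same order. At 20 or more, 18 of 34 members (12 of 22 sets) were called between AuCG_N and L6CG_N, beside 43.6% of all names. Between AuWH_N and L6WH_N 0 of 21 were called, beside 10.7%. The members that differed most between AuCG_N and L6CG_N were p5_1ss11AG (69.0 against 21.5, log2 ratio 1.64) and p3_1ss15CG_1, which was at 0 in AuCG_N and at 42.9 in L6CG_N. Between AuCG_C and L6CG_C they were p3_1ss22CT (25.95 against 7.54, 1.66) and p5_2ss7TC20AG (10.7 against 30.2, -1.41), and between AuWH_C and L6WH_C p5_1ss5CT (43.4 against 16.5, 1.34). The pairs with L6CG_N held the most calls at 20 or more within N starvation (14), parental stress (14 of 32, beside 24.2% of all names) and genotype (18).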

How the data were processed

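The authors sequenced small RNA of 8 pooled libraries, removed adapters and reads of other RNA classes, and annotated miRNAs with ACGT101-miR, using miRBase and the Svevo.v1 assembly of durum wheat. The deposited signal values are normalised reads counts per entry (1532 entries, 1508 names, 1473 sequences). The rule behind the scaling factors was not given in the sources used here. Low values of a library were whole multiples of 1 step (within 0.02 reads) in 95.0 to 97.9% of cases, and this step was taken as 1 read. Estimated reads serve for intervals, read numbers and 1 alternative scaling to the clear reads of each library (those left after the authors' filters). Count models were not run. Tests used log2 of the value plus 1 where a sequence averaged at least 10, in limma 3.58.1 under R 4.3.3, with trended empirical Bayes variances and a Benjamini-Hochberg threshold of 0.05. The residual degrees of freedom were 4, or 3 with an interaction. Fisher's exact test used rounded values in scipy 1.17.1. Both were tested on simulated data. Alternatives changed the pseudocount, the filter, the scaling, the unit counted and the libraries. P-values of limma measure the spread between single pooled libraries. Those of Fisher's exact test treat the rounded values of a pair of libraries as counts and measure no spread between libraries.

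Members and lists were chosen with earlier results of these data known. Named members are the 12 highest sets of values, the 3 of lowest p per factor, those at 0 in all libraries of 1 level, the largest rise and fall per pair, the largest shared set and 1 hairpin with products from each arm. The p5_1ss7GC, p5_2ss12GC18AT, p5_2ss17TC21AG and p3_1ss21AC members were added after their values were seen. Sequence identifiers of the table were matched to chromosomes by the share of hairpins within 3000 bases of annotated genes, which was 31.7 to 45.3% for the best chromosome and at most 20.0% for the next. Hairpins were folded with RNAfold 2.7.2 at default settings. The raw reads were not analysed here.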

Additional observations from a re-analysis of the deposited data

Results flagged for a closer look

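In 90 groups of 4 libraries that share 1 level of a factor (the summed level, the number of members listed, the 5' share and the 12 highest sets of values), 9 held a library that stood apart from the other 3. The rule flags about 1 in 20 groups of replicates by chance. Here the 4 libraries differ in both other factors and each enters several groups, so the 9 cannot be set against that rate. For the p5_1ss9AG set the libraries apart were L6CG_N among the N-starved libraries (267, others 159.9 to 174) and L6WH_C among the WH libraries (270.0, others 159.9 to 169.6). L6CG_N was also apart among the N-starved libraries for p3_1ss14CG_1 (94.6, others 33.6 to 40.8). L6WH_C was apart among the WH libraries for p3_1ss11CG_1 (51.0, others 74.0 to 77.6), p5_1ss5CT (16.5, others 41.8 to 45.5) and p3_1ss22AC (55.3, others 28.5 to 32.5). AuCG_N was apart among the N-starved libraries for p5_1ss5CT (12.5, others 41.8 to 45.5). L6CG_C was apart for p3_1ss20AC (31.2), both among the controls (others 16.1 to 18.7) and among the L6 libraries (others 18.7 to 19.5). The cause was not tested in any of them.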

How the results depend on the processing

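The count of members called for N starvation was 0, but 5 with a filter at a mean of 5 and 6 with no filter. It was 0 to 3 when each library was left out in turn (3 without L6CG_N). All calls at lower filters were of members at 0 in at least 3 of 4 controls. All without L6CG_N were lower, in members that had reached the filter through L6CG_N and the controls. The cause was not tested. The count stayed at 0 with a pseudocount of 5, equal totals, quantile normalization, clear-read scaling, distinct sets of values and matched pairs as a block. No alternative called a member for parental stress, genotype or an interaction. Equal totals moved the median N change of all sequences to -0.24 and quantile normalization to 0.17, and the members' median to -0.30 and 0.18. The mean summed level was 1341, 2438 with each sequence counted once and 913 with only members at a mean of 10 or more. The mean log2 ratio for N starvation was -0.22 with equal totals, and that for genotype -0.35 with clear-read scaling. Without single libraries the family ranked 1 to 3 by its spread. Calls over the 12 pairs numbered 846, 699 with the chi-square test, 851 with no pseudocount (chosen after seeing the data) and 73 at 20 or more in 1 of both libraries. Each of these numbers counts every sequence of a shared set of values. The chi-square test called 42 members instead of 69 between L6WH_N and L6WH_C, 47 instead of 75 between L6WH_C and L6CG_C, and 42 instead of 69 between L6WH_N and L6CG_N. Members listed averaged 113.5 per library, 43.25 at 10 or more and 62.6 at the common floor, an alternative chosen after seeing the data. The 5' share was 62.4% with each sequence counted once. At the common floor the patterns listed in 1 level alone held for 1 member in CG parents (p3_1ss21AC) and 0 by genotype. The floor had set p3_1ss21AC to 0 in AuWH_N (5.09), L6WH_N (3.25) and L6WH_C (5.03). Tests on whole reads were not run because 95 to 97.9% of the low values of the whole table, and not nearly all, were whole reads. The labels give no replicate numbers to pair by, and the block of matched pairs comes from the design. Depth limits what can be said of 185 of 216 members, whose mean was under 10.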
